A study of Mus musculus with 4 samples.

Results

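The hypoxia response genes are 10 of the 32285 genes counted in single-nucleus RNA-Seq of mouse lungs, chosen by symbol for their place in the pathway, with no threshold on a measured value: Hif1a, Epas1, Hif3a, Egln1, Egln3, Vegfa, Adm, Pdk1, Slc2a1 and Ankrd37. Earlier results of these data were known when the set was chosen. The lungs came from 2 WT mice (strain label C57/BL6J) and 2 VEcad-TRF2DN-Tg mice, all male and 8 to 9 weeks old. The transgene, carried in the heterozygous state per the study's methods, puts a dominant-negative form of the telomere-binding protein TRF2 under the VE-cadherin promoter, so that endothelial cells (ECs) undergo premature senescence. Per the paper, all 4 mice were kept at 10% oxygen for 3 weeks, a model of pulmonary hypertension. No normoxic library was analysed here, so that the values below are levels under hypoxia and differences between cell types or genotypes, and the response of these genes to hypoxia cannot be read from them.

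In cells with enough oxygen, the prolyl hydroxylases Egln1 (PHD2) and Egln3 (PHD3) mark the alpha subunits of the hypoxia-inducible factors (HIFs), Hif1a and Epas1 (HIF-2α), for degradation by the von Hippel-Lindau protein. When oxygen is short the subunits escape, pair with Arnt and bind a short DNA motif, the hypoxia response element, near their target genes. Hif3a, a related subunit, has splice forms that oppose the others. Among the targets are the angiogenic factor Vegfa, the vasodilator peptide Adm, the kinase Pdk1 that holds pyruvate back from mitochondria, the glucose transporter Slc2a1 (GLUT1), the ankyrin repeat protein Ankrd37, and Egln3 itself. Epas1 is named for its endothelial expression, and HIF signalling in ECs is known to take part in hypoxic pulmonary hypertension. HIF alpha subunits are controlled mainly as proteins, which these data do not measure.

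The core of the hypoxia response element is shown here because it is the motif that HIFs bind. The letters ACGTG and GCGTG, or CACGT and CACGC where the motif lies on the other strand, were searched in windows of 250 bases before to 50 after the RefSeq gene starts. Of all 32851 windows, 43.8% held at least 1 of them, so that a match in a window is common. The set of windows used covered 9 of the 10 genes and held none for Epas1, which was therefore not searched. Of the 11 windows of these genes, 9 held the motif. One stretch of 30 bases per gene follows, 5′ to 3′ on the strand of the gene, with the motif in capitals, from build GRCm38.p6.
Hif1a, chr12:73907784-73907813, + strand, in an intron: ttggctgagagcaACGTGggctggggtggg
Hif3a, chr7:17062597-17062626, - strand, upstream: gtctggggcagggGCGTGgctgggggtgtg
Egln1, chr8:124949306-124949335, - strand, upstream and 5′ UTR: ggggccgtggtgtACGTGcagcgcgcgcgg
Egln3, chr12:54204087-54204116, - strand, upstream: atgtgcatctcagACGTGagatccaggttt
Vegfa, chr17:46025358-46025387, - strand, in coding sequence before a second, internal start: tggagtGCGTGccCACGTcagagagcaaca
Adm, chr7:110627590-110627619, + strand, upstream: gggcaaatctgacCACGCccaccgtccgcc
Pdk1, chr2:71873133-71873162, + strand, upstream: cccgcctacatggGCGTGtctttaaccagg
Slc2a1, chr4:119108696-119108725, + strand, upstream and 5′ UTR: agtcccgccccggACGTGctccccaggccc
Ankrd37, chr8:45999851-45999880, - strand, coding sequence and intron of another annotated transcript: ggctgcacatgtcagtgtttgggtACGTGa
Vegfa and Pdk1 have 2 windows each, and the window at the outer start of Vegfa and the inner one of Pdk1 held none of these letters. In the annotation GENCODE vM21 of the same build, Vegfa lies at chr17:46016993-46032369 on the - strand, Epas1 at chr17:86753700-86833410 on the + strand and Hif1a at chr12:73901375-73947530 on the + strand. These matches are letters in a window, and no binding was measured.

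Each captured transcript was counted once by its unique molecular identifier (UMI), and the files hold 125261739 to 182014706 UMIs per mouse. Barcodes with at least 1500 UMIs, 25269 to 44000 per mouse, were taken as possible nuclei, and 24490 of the 134745 were placed in a class by the UMIs of marker genes, none of which is a gene of this set. Class names below stand for nuclei with such markers (AT1 for alveolar type 1-like, and so on). Of the possible nuclei, the share placed in any class was uneven between the genotypes. It was 12.3% for WT replicate 1, 11.4% for WT replicate 2, 29.6% for Tg replicate 1 and 21.1% for Tg replicate 2. The share placed as ECs was 2.52%, 1.59%, 6.32% and 4.33%, in the same order of mice. What part this unevenness has in the genotype comparisons was not tested. Marker UMIs placed 24371 nuclei in 12 classes with enough nuclei in every mouse to be compared, from 5053 AT1 nuclei and 4796 EC nuclei to 348 pericyte and 313 lymphatic EC nuclei. Markers of lung cells (alveolar, ciliated and endothelial) were found in all 4 libraries, while 27 smooth muscle and 4 club nuclei were too few to test. The median depth of a class in a mouse was 2172 to 6851 UMIs per nucleus. RNA that leaks from broken cells enters every droplet, and the barcodes with 300 to 800 UMIs (2732 to 18387 per mouse) were taken as a measure of this free RNA. Whether some of these barcodes hold nuclei was not tested. From genes foreign to a class, 19.1% to 63.8% of its UMIs (club cell genes) or 16.8% to 51.8% (hemoglobin genes) were estimated to be free RNA. The free RNA itself differed between the genotypes: in the WT libraries hemoglobin transcripts made up 0.0329% and 0.0373% of it, against 0.812% and 0.515% in the Tg libraries, and the club cell transcript Scgb1a1 1.5% and 1.57% against 12.8% and 4.34%. Mitochondrial transcripts were 0.126% and 0.151% of it (WT) against 0.785% and 0.685% (Tg). Terf2, the mouse gene of TRF2, was counted in WT ECs at 55.4 and 57.0 CPM (UMIs scaled to a common total of 1e6 per sum) and in Tg ECs at 51.0 and 54.8 CPM, and these counts do not tell RNA of the transgene from that of the mouse gene. Xist reached at most 1.75 CPM in the classes of any mouse, as in male cells, and 176 to 475 barcodes (0.697% to 1.30% of the smaller library) were shared between any 2 libraries.

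Across the 12 cell classes, Epas1 was highest in ECs, Vegfa in AT1 nuclei and Hif3a in pericytes and fibroblasts. Egln3 had its highest means in mesothelial and T and NK nuclei, with ranges that overlapped those of other classes. Hif1a, Egln1, Pdk1 and Slc2a1 were found in every class within narrower ranges, and Adm and Ankrd37 were too sparse to be tested, with 126 and 253 UMIs in all classes of all mice together. In edgeR's quasi-likelihood F test over the classes, with a term for each mouse, all 8 genes that passed the filter on low counts differed among the classes, with adjusted p from 2.0e-39 for Vegfa to 0.0054 for Pdk1. This share has to be read against a background in which 82.6% of the 14115 genes tested differed among the classes.

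**Figure D1:**
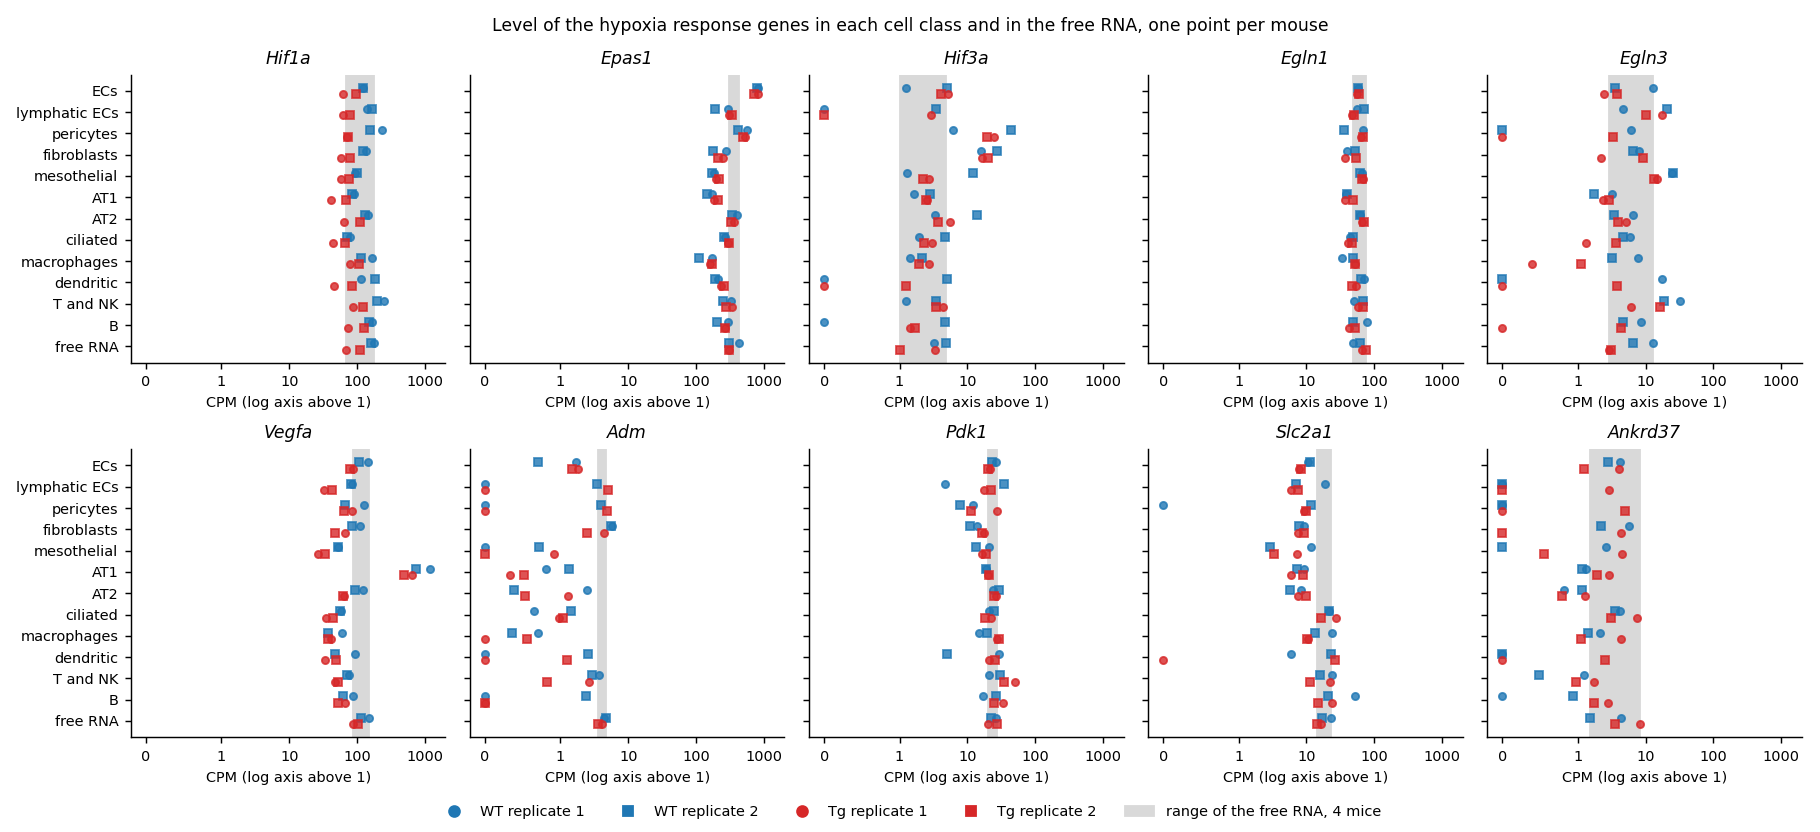
Level of each gene (CPM, log axis above 1) in the 12 cell classes and in the free RNA, with 1 point per mouse (blue WT, red Tg) and a grey band for the range of the free RNA over the 4 mice. Epas1 in ECs (mean 784 CPM), Vegfa in AT1 nuclei (mean 765 CPM) and Hif3a in pericytes and fibroblasts (means 23.4 and 19.9 CPM) stand outside the band, while most other points lie in the band, below it or near it.

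Among the HIF subunits, Epas1 was counted in ECs at 819 and 783 CPM in the WT mice and 825 and 707 CPM in the Tg mice. Its mean of 784 ± 54.2 CPM (SD, n = 4) was followed by 498 ± 67.6 CPM in pericytes and 357 ± 32.5 CPM in AT2 nuclei, and macrophages were lowest at 153 ± 29.6 CPM. Outside the 12 classes, the 4 club nuclei held 34 Epas1 UMIs, at 1196 to 1430 CPM in the mice with such nuclei, which is above ECs but from too few nuclei to test. Barcodes without a class had a mean of 440 ± 74.4 CPM. The 4 EC values lay above all 4 values of pericytes, and the 4 of pericytes above all 4 of AT2 nuclei, while the other 9 neighbours in the order overlapped. Within the same mouse, 7 of the 11 pairs of neighbours kept their order in all 4 mice. The level in ECs was 1.95 to 2.71 times that in the free RNA of the same mouse, which is a log2 difference of 1.24 (SE 0.11, adjusted p = 1.55e-14, edgeR). Pericytes stood 0.54 above the free RNA on the log2 scale (SE 0.12, adjusted p = 0.00017), and Epas1 was lower than in the free RNA in 8 classes. Against the mean of the other classes, Epas1 was higher in ECs by 1.59, in pericytes by 0.85 and in AT2 nuclei by 0.45 (log2), the last of which did not differ from the free RNA by the test. These EC and pericyte differences kept their direction and their call under all alternatives tried.

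The share of EC nuclei with an Epas1 UMI was 82.8% and 85.6% (WT) and 83.2% and 82.2% (Tg), and the median nucleus held 2488 to 3710 UMIs. Thinned to 1500 UMIs in each nucleus, which left out none, the shares were 64.7%, 63.0%, 67.2% and 61.1%. In macrophages, the class with the lowest level, the thinned shares were 21.8%, 16.1%, 19.6% and 22.2%, and the unthinned ones 35.8% to 50.7% at median depths of 2941 to 6851 UMIs. These shares are side by side as a description, since macrophages are the class with the lowest level. Free RNA also made up more of the UMIs of ECs than of macrophages, 30.3% to 42.9% against 23.7% to 35.2% from club cell genes.

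Hif1a was spread over all classes. T and NK nuclei were highest at 163 ± 70.8 CPM, followed by pericytes at 133 ± 77 CPM and B nuclei at 129 ± 39.5 CPM (SD, n = 4), and ciliated nuclei were lowest at 65.4 ± 14.8 CPM. The free RNA held 130 ± 49.6 CPM, none of the 12 classes was higher than it by the test, and 5 were lower. Over the 4 mice, neighbouring classes in the order overlapped in all 11 pairs, while within the same mouse 2 of the pairs kept their order in all 4 mice. T and NK nuclei were 1.11 to 1.37 times the free RNA of the same mouse, a difference that did not pass the test. Against the mean of the other classes, T and NK nuclei were higher by 0.51 on the log2 scale.

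Hif3a was rare, with 460 UMIs in all classes. Its level was 6.1 and 43.3 CPM in the pericytes of the WT mice and 24.6 and 19.7 CPM in those of the Tg mice, and 16.0 and 27.4 against 16.3 and 19.8 CPM in fibroblasts. AT2 nuclei came next with a mean of 6.57 CPM, and the free RNA held a mean of 3.12 CPM. All 4 fibroblast values lay above the 4 values of AT2 nuclei, and those of pericytes and fibroblasts overlapped. Against the free RNA, pericytes were higher by 2.75 (SE 0.37), fibroblasts by 2.61 (SE 0.29) and AT2 nuclei by 0.93 (SE 0.30, adjusted p = 0.0059) on the log2 scale. Without WT replicate 2, the AT2 difference was 0.47 with adjusted p = 0.26. Thinned to 1500 UMIs, 2.30% to 4.05% of fibroblast nuclei held a Hif3a UMI, against 0.25% to 0.52% of T and NK nuclei, so that few nuclei of either class showed the gene at this depth.

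The oxygen sensors followed different patterns. Egln1 was even, with class means from 40.7 CPM in AT1 nuclei to 65.2 CPM in AT2 nuclei and 62.8 ± 11.1 CPM (SD, n = 4) in the free RNA. It was above the free RNA in no class by the test and below it in 5, and the ranges of neighbouring classes overlapped in all 11 pairs. AT2 and mesothelial nuclei were above the mean of the other classes by 0.37 and 0.38 (log2).

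Egln3, which HIFs induce, was low in most classes and highest in mesothelial nuclei, at 24.9 and 25.8 CPM in the WT mice and 14.5 and 13.3 CPM in the Tg mice. T and NK nuclei held 32.1 and 18.5 against 6.06 and 16.2 CPM. The free RNA held 13 and 6.44 CPM in the WT mice and 2.86 and 3.08 CPM in the Tg mice. Both classes exceeded the free RNA of the same mouse in all 4 mice, by 1.74 (SE 0.32) and 1.45 (SE 0.30) on the log2 scale. Lymphatic ECs, with a mean of 13.3 CPM, came next, and the ranges of all neighbouring classes overlapped.

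Vegfa, the growth factor that maintains alveolar capillaries, was counted in AT1 nuclei at 1177 and 749 CPM in the WT mice and 644 and 490 CPM in the Tg mice. The mean of 765 ± 294 CPM (SD, n = 4) was far above that of ECs, second in order at 104 ± 30.2 CPM, with no overlap between the 2 classes. Pericytes at 85.5 CPM, AT2 nuclei at 84.7 CPM and fibroblasts at 77.2 CPM followed, and mesothelial nuclei were lowest at 41.2 CPM. AT1 nuclei were 4.80 to 7.84 times the free RNA of the same mouse, a log2 difference of 2.97 (SE 0.12). Vegfa was below the free RNA in 10 of the other 11 classes, and ECs did not pass the test (-0.16, adjusted p = 0.28), although ECs were above the mean of the other classes by 0.40. In none of the 11 classes other than AT1 nuclei was Vegfa above the free RNA by the test.

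Of the AT1 nuclei, 95.6% and 89.0% (WT) and 84.5% and 83.5% (Tg) held a Vegfa UMI, where the median nucleus held 3363 to 4476 UMIs. Thinned to 1500 UMIs, the shares were 79.3% and 64.5% against 60.7% and 52.5%. Macrophages gave thinned shares of 8.84%, 6.34%, 6.34% and 5.74%, in the same order of mice. The AT1 share was the higher one in every mouse.

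Of the targets in metabolism, Pdk1 ranged from 14.6 CPM in fibroblasts to 34.0 CPM in T and NK nuclei, where the 4 mice gave 21.0 and 30.3 CPM (WT) and 50.2 and 34.7 CPM (Tg). T and NK nuclei were above the free RNA by 0.42 on the log2 scale (SE 0.18, adjusted p = 0.043). This call was lost without WT replicate 2 (0.40, adjusted p = 0.097), without Tg replicate 1 (0.22, 0.46) and without Tg replicate 2 (0.39, 0.19). Slc2a1 had its highest means in B nuclei (51.5 and 20.7 CPM in the WT mice, 24.1 and 14.6 CPM in the Tg mice) and in ciliated nuclei (21.8 and 21.7 against 27.5 and 16.4 CPM), with 17.6 ± 3.64 CPM (SD, n = 4) in the free RNA. B nuclei were above ciliated nuclei only in 1 mouse, WT replicate 1. Ciliated nuclei were above the free RNA by 0.45 (SE 0.20, adjusted p = 0.045). That call was lost without WT replicate 2 (0.41, adjusted p = 0.145), without Tg replicate 1 (0.37, 0.158) and without Tg replicate 2 (0.40, 0.163), and ECs, the cells of the transgene, were lower than the free RNA in Slc2a1 by 0.94 (SE 0.23).

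Adm had its highest class mean in fibroblasts at 4.51 ± 1.48 CPM (SD, n = 4), beside 4.14 ± 0.44 CPM in the free RNA. Ankrd37 was highest in ciliated nuclei at 4.57 ± 1.95 CPM, beside 4.45 ± 2.85 CPM in the free RNA. Both were at 0 in 12 of the 48 sums of a class in a mouse, and the highest class mean of each lay within 1 SD of the mean of the free RNA.

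**Figure D2:**
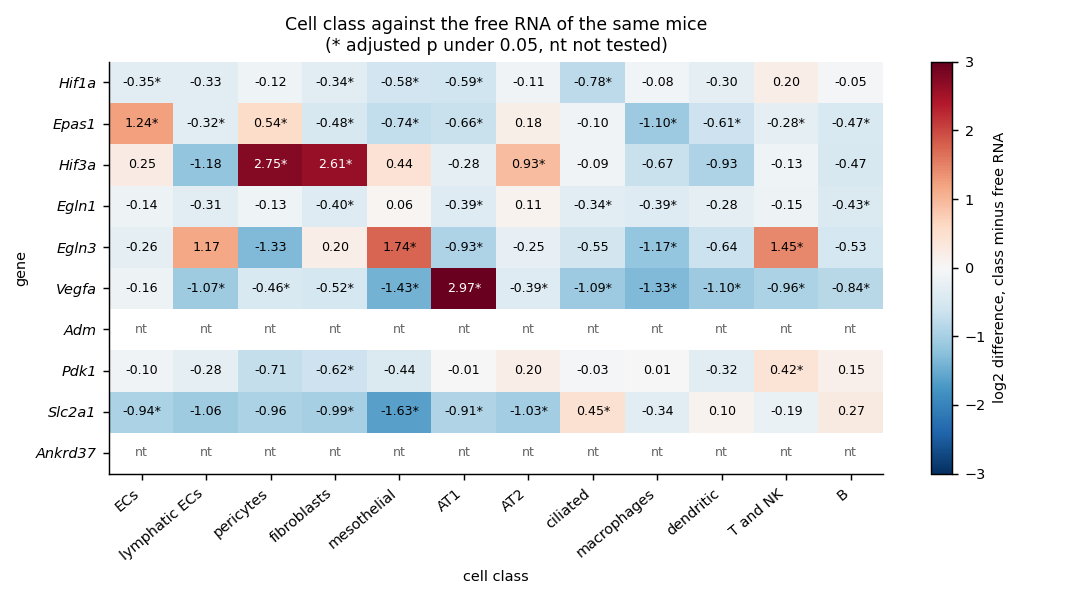
Log2 difference of each gene (rows) between each cell class (columns) and the free RNA of the same mice, from edgeR with a term for each mouse (star, adjusted p under 0.05; nt, not tested). Red cells mark Epas1 in ECs (1.24), Hif3a in pericytes and fibroblasts (2.75 and 2.61), Egln3 in mesothelial and T and NK nuclei (1.74 and 1.45) and Vegfa in AT1 nuclei (2.97).

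By class, the number of these genes above the free RNA, of 8 tested, was 2 in pericytes and in T and NK nuclei, 1 in ECs, AT1, AT2, ciliated, fibroblast and mesothelial nuclei, and 0 in lymphatic ECs, macrophages, dendritic and B nuclei. Of all 14714 genes tested, the share above the free RNA was 25.3% in ECs, 17.0% in lymphatic ECs, 28.7% in AT1, 28.6% in AT2, 35.1% in ciliated, 25.1% in fibroblast, 15.0% in pericyte and 25.6% in mesothelial nuclei, and 30.1% in macrophages, 20.3% in dendritic, 23.1% in T and NK and 21.0% in B nuclei. The count of 2 of 8 lay above that share in pericytes and near it in T and NK nuclei, and the other counts lay below it. The T and NK count includes Pdk1, whose call was lost in fits that left out a mouse, as given above. Below the free RNA were 6 of the 8 in fibroblasts, 5 in AT1, 4 in mesothelial nuclei and in macrophages, and 3 in ciliated and in B nuclei. There were 2 in ECs, lymphatic ECs, AT2, dendritic and T and NK nuclei and 1 in pericytes. The share of all genes below the free RNA was not counted. Against the mean of the other classes, the genes higher were Epas1 and Vegfa in ECs, Vegfa in AT1 nuclei, Epas1, Hif3a, Egln1 and Pdk1 in AT2 nuclei, Slc2a1 in ciliated and in B nuclei, Hif3a in fibroblasts, Epas1 and Hif3a in pericytes, Egln1 and Egln3 in mesothelial nuclei, and Hif1a, Egln3 and Pdk1 in T and NK nuclei. The background shares for that contrast were 13% in ECs, 6.35% in lymphatic ECs, 19.8% in AT1, 17.5% in AT2, 28.5% in ciliated, 13.2% in fibroblast, 6.06% in pericyte, 19.0% in mesothelial, 25.1% in macrophage, 11.3% in dendritic, 10.9% in T and NK and 10.1% in B nuclei. Lymphatic ECs, macrophages and dendritic nuclei had none of these genes above the other classes. The genes lower than the mean of the other classes were Epas1, Hif3a, Egln3 and Vegfa in macrophages (4 of 8), Hif1a, Epas1 and Egln3 in AT1 nuclei, Epas1, Vegfa and Slc2a1 in mesothelial nuclei, Hif1a and Vegfa in ciliated nuclei, Epas1 and Vegfa in dendritic and in B nuclei, Epas1 in fibroblasts, and Vegfa in lymphatic ECs and in T and NK nuclei. Of all genes, 28.8% were lower in macrophages, 23.5% in AT1, 17.6% in mesothelial, 30.1% in ciliated, 9.63% in dendritic, 11.6% in B, 10.9% in fibroblast, 3.63% in lymphatic EC and 12.1% in T and NK nuclei, and 10.6% in ECs, 18.2% in AT2 and 3.54% in pericyte nuclei, where none of these genes was lower. Without WT replicate 2, the calls of Hif3a in AT2 nuclei (0.55, adjusted p = 0.23) and Slc2a1 in B nuclei (0.90, 0.104) were lost, and that of Pdk1 in AT2 nuclei (0.38) was lost without any 1 of the 4 mice (0.28 to 0.48, adjusted p 0.0506 to 0.211).

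Genes whose level followed that of a member over the 12 classes were listed as a description, among 8014 genes with a mean of at least 20 CPM, by Pearson's r of log2(CPM + 1). The classes share their libraries and free RNA. Vegfa was followed most closely by Emp2 (r = 0.975), Slc22a22 (0.972) and Rtkn2 (0.964), the last a marker used to find AT1 nuclei. For Hif3a the closest were Tbx2 (0.938), Tbx5 (0.938) and Mark1 (0.906), for Epas1 Samd12 (0.935), Atp8b1 (0.926) and Sox13 (0.892), and for Egln3 Shprh (0.874) and Ccdc25 (0.849). Tbx2 and Tbx5 encode transcription factors of lung mesenchyme and Sox13 one that is found in vessels. Hif1a was followed by Ociad1 (0.936), Atp5l (0.934) and mt-Nd6 (0.925), Egln1 by Cd200 (0.884), Rad23b (0.868) and Myef2 (0.862), and Pdk1 by Bag1 (0.893), Zfp292 (0.872) and Ash1l (0.870). Slc2a1 was followed by Trappc10 (0.911), Ccnd3 (0.908) and Slc38a1 (0.906), Adm by Acvr2a (0.889), Mylk (0.872) and Csmd1 (0.866), and Ankrd37 by Ccs (0.873), Ctbp2 (0.836) and Prickle2 (0.795).

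The comparison of Tg with WT mice asked whether EC senescence goes with a different state of the hypoxia response at the same oxygen. For Hif1a, both Tg values lay below both WT values in all 6 classes compared and in the free RNA, and the same held for Vegfa in ECs, AT1, AT2 and fibroblast nuclei and in the free RNA. Of all genes tested, 24.7% (AT1) to 29.9% (pericytes) had this order in a class, and 41.6% in the free RNA. The sets come from the same 4 mice and each class holds free RNA, so that they are not separate results. Only Vegfa in AT2 nuclei and Hif1a in pericytes passed edgeR's test with Benjamini-Hochberg adjustment over all genes. Of the genes tested, the number called was 0 of 9 in ECs and in AT1 nuclei, 1 of 8 in AT2 nuclei, 0 of 6 in fibroblasts and in macrophages, 1 of 4 in pericytes and 0 of 10 in the free RNA. Over all genes, 8.14% were called in ECs, 6.82% in AT1, 14.4% in AT2, 6.08% in fibroblasts, 4.85% in macrophages, 4.40% in pericytes and 25.6% in the free RNA. The calls in the free RNA were 2208 higher and 1675 lower in Tg (1758 and 2500 without TMM scaling). Those in AT1 nuclei were 928 higher and 81 lower (1038 and 314 by DESeq2) and those in macrophages 581 and 42 (590 and 187 by DESeq2). At an unadjusted p under 0.05, there were 2 of the genes in each of ECs, AT1, AT2, fibroblasts and macrophages, 1 in pericytes and 3 in the free RNA. The shares of all genes at that level were 28.3%, 29.6%, 32.4%, 22.4%, 24.5%, 17.7% and 42.4% in the same order, so that the 2 of 6 in fibroblasts and in macrophages and the 1 of 4 in pericytes were above the share and the others below it. By DESeq2 at the adjusted threshold, 1 gene was called in AT1 nuclei (Vegfa) and none in the others, where DESeq2 called 7.98% of all genes in ECs, 9.70% in AT1, 9.14% in AT2, 4.03% in fibroblasts, 6.55% in macrophages, 2.14% in pericytes and 25.4% in the free RNA. With 2 mice in a group, an exact permutation test on one gene cannot reach a p below 0.33. The p-values of edgeR and DESeq2 rest on the spread between 2 mice per genotype together with spread pooled over genes.

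Hif1a in ECs was 121 and 121 CPM in the WT mice and 62.5 and 95.3 CPM in the Tg mice. In AT1 nuclei it was 89.8 and 84.4 against 41.5 and 69.1 CPM, in AT2 nuclei 146 and 133 against 63.9 and 109 CPM, and in fibroblasts 135 and 121 against 57.5 and 77.5 CPM. In macrophages, the same order gave 168 and 114 against 78.4 and 108 CPM. Both Tg mice were thus below both WT mice in each of these classes, and Tg replicate 1 was the lowest throughout. The fitted log2 fold changes were -0.65 (SE 0.22, adjusted p = 0.106) in ECs, -0.70 (SE 0.21, 0.0935) in AT1, -0.70 (SE 0.23, 0.0686) in AT2, -0.90 (SE 0.23, 0.0524) in fibroblasts and -0.61 (SE 0.26, 0.200) in macrophages, none of which passed the threshold. The free RNA held 180 and 161 CPM in the WT mice and 69.8 and 111 CPM in the Tg mice, which is a fitted log2 change of -0.70 (SE 0.24, adjusted p = 0.0730), and the difference between the change in ECs and that in the free RNA was 0.08. Leaving out WT replicate 2 gave -0.81 in AT2 nuclei, -1.05 in fibroblasts and -0.88 in macrophages, and leaving out Tg replicate 2 gave -1.11 in AT2 nuclei. These are leave-outs that enlarged the fall. Tg replicate 2 lay nearer to the WT mice than Tg replicate 1 in each of these classes. With no filter on low counts, Hif1a passed the threshold in AT1 (-0.69, adjusted p = 0.0143), AT2 (-0.70, 0.0130) and fibroblast nuclei (-0.94, 0.0141). In the same setting it passed in the free RNA (-0.75, 0.0428). The number of all genes called rose with no filter in each of these sets too, as given in the closing section. Without the nuclei with the most UMIs, Hif1a passed in fibroblasts (-0.90, 0.0453). Apart from the fits with the free RNA subtracted, the part of free RNA in the lower Hif1a of the Tg mice was not tested.

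In pericytes, Hif1a was 232 and 158 CPM in the WT mice (38 and 40 UMIs) and 70.6 and 73.8 CPM in the Tg mice (23 and 45 UMIs). It fell by 1.30 on the log2 scale (SE 0.30, adjusted p = 0.0297), and it was lower in 2 of 2 Tg mice. The pericyte sums came from 50 to 141 nuclei a mouse, and DESeq2 gave an adjusted p of 0.210. The call was lost without WT replicate 1 (-1.06, adjusted p = 0.211), without WT replicate 2 (-1.62, 0.367) and without Tg replicate 2 (-1.26, 0.081), and also when the free RNA was subtracted (-1.62, 0.208) or the nuclei with the most UMIs were left out (-1.03, 0.0617).

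Vegfa in AT1 nuclei, its main source here, was 1177 and 749 CPM in the WT mice against 644 and 490 CPM in the Tg mice. On the log2 scale the fitted change was -0.78 (SE 0.30, adjusted p = 0.149), with a wide spread between the WT mice, and DESeq2 gave an adjusted p of 0.0487. Without WT replicate 2, the lower WT mouse, it was -1.12, and that mouse lay nearer to the Tg mice than to WT replicate 1. Keeping genes of low counts gave -0.78 (adjusted p = 0.0023), in a setting that called more of all genes. In AT2 nuclei, Vegfa was 121 and 92.3 CPM in the WT mice and 63.0 and 62.2 CPM in the Tg mice. There it fell by 0.78 (SE 0.20, adjusted p = 0.0303), lower in 2 of 2 Tg mice, and DESeq2 gave 0.0613. That call was lost without WT replicate 1 (-0.57, adjusted p = 0.12), without Tg replicate 1 (-0.83, 0.0972) and without Tg replicate 2 (-0.74, 0.109), and with classes set by likelihood in place of marker UMIs (-0.56, 0.108). As given above, Vegfa in AT2 nuclei lay below the free RNA. The AT2 class rested on 6 of 12 listed markers. Its nuclei near the limit of the marker ratio numbered 161 of 271 and 193 of 391 (WT), against 408 of 675 and 471 of 780 (Tg). Likelihood kept 88.6% and 88.0% of the WT nuclei in this class, but 71.4% and 65.4% of the Tg nuclei. It also gave a far larger AT2 class, of 1971 and 2309 nuclei (WT) and 5698 and 7463 nuclei (Tg). Of these, 240 and 344 (WT) and 482 and 510 (Tg) were in the marker class, so that the fit by likelihood rests mostly on other nuclei. Apart from that fit, the part of these uneven shares in the Vegfa change was not tested.

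ECs held 145 and 107 CPM of Vegfa in the WT mice and 85.7 and 78.2 CPM in the Tg mice (-0.65, SE 0.22, adjusted p = 0.105), and fibroblasts 111 and 83.3 against 67.2 and 47.0 CPM (-0.76, SE 0.29, 0.165). The groups did not overlap in either class. Without WT replicate 2, the lower WT mouse in both, the changes were -0.90 in ECs and -1.02 in fibroblasts. WT replicate 2 lay nearer to the Tg mice than WT replicate 1 did in both. With no filter on low counts ECs passed the threshold (-0.62, adjusted p = 0.0490), where more of all genes were called too. In macrophages (59.3 and 37.9 against 40.6 and 37.3 CPM) and pericytes (128 and 66.9 against 82.9 and 63.9 CPM) the genotypes overlapped. The free RNA held 150 and 115 CPM in the WT mice and 87.5 and 102 CPM in the Tg mice (-0.25, SE 0.24, adjusted p = 0.462). The change in ECs differed from that in the free RNA by -0.33 (SE 0.18, adjusted p = 0.230), which did not pass the test. Among the few EC nuclei with arterial markers, 9 to 38 a mouse, Vegfa was 208 and 193 CPM in the WT mice and 131 and 96.2 CPM in the Tg mice. Nuclei with venous markers, 37 to 120 a mouse, gave 77.8 and 81.2 against 44.9 and 69.5 CPM, and those with markers of aerocyte capillaries, 42 to 165 a mouse, 82.8 and 79.0 against 108 and 52.6 CPM. These are values without a test, and the genotypes overlapped in the aerocyte nuclei. General capillary markers found only 3 to 7 nuclei a mouse.

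**Figure D3:**
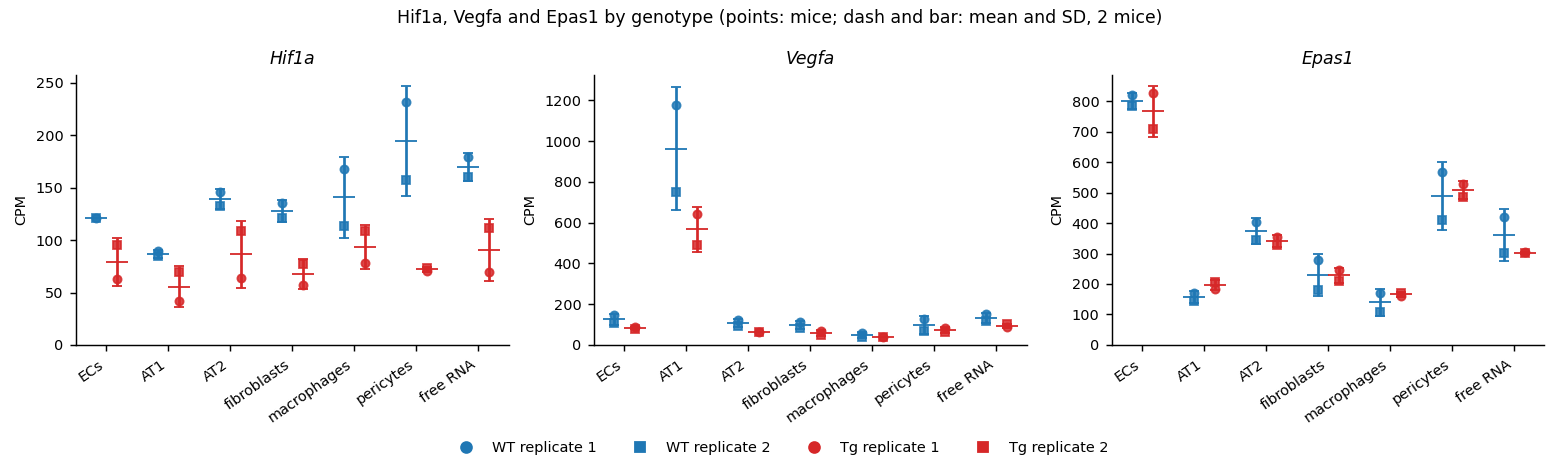
CPM of Hif1a, Vegfa and Epas1 in the 6 classes compared and in the free RNA, with 1 point per mouse and a dash and bar for the mean and SD of 2 mice (blue WT, red Tg). For Hif1a all red points lie below the blue points of the same class, for example 62.5 and 95.3 against 121 and 121 CPM in ECs, while those of Epas1 in ECs overlap.

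Epas1 showed no such order. In ECs the WT mice gave 819 and 783 CPM and the Tg mice 825 and 707 CPM (log2 fold change -0.09, SE 0.21, adjusted p = 0.815), and in pericytes 568 and 410 against 528 and 487 CPM. In AT1 nuclei, it was 172 and 143 CPM in the WT mice and 185 and 208 CPM in the Tg mice (0.29, SE 0.17, adjusted p = 0.30). With the free RNA subtracted, the AT1 change was 1.11 and passed the test (adjusted p = 0.0262). The genotypes overlapped in ECs, AT2, fibroblast, macrophage and pericyte nuclei and in the free RNA. Hif3a in ECs was 1.25 and 4.93 against 5.25 and 4.08 CPM (0.52, SE 0.59), and in fibroblasts, where it was higher, 16.0 and 27.4 against 16.3 and 19.8 CPM (-0.24, SE 0.40). These subunits overlapped between the genotypes in both classes.

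Of the sensors, Egln1 in ECs was 58.4 and 58.4 CPM in the WT mice and 55.5 and 59.7 CPM in the Tg mice (log2 fold change -0.05, SE 0.17, adjusted p = 0.886). In the free RNA it was 48.4 and 61.2 against 66.6 and 74.9 CPM (0.61, SE 0.23, adjusted p = 0.0906). Egln3 in ECs was 12.9 and 3.52 CPM in the WT mice and 2.42 and 3.81 CPM in the Tg mice (-1.38, SE 0.63, 0.197), and 13 and 6.44 against 2.86 and 3.08 CPM in the free RNA (-1.42, SE 0.48, 0.0701). WT replicate 1 held the most Egln3 in both, and without WT replicate 2 the change was -2.09 in ECs and -1.85 in the free RNA. In ECs, WT replicate 2 at 3.52 CPM lay between the Tg mice, so that the change there rests on WT replicate 1. With no filter on low counts the change passed the threshold in ECs (-1.34, adjusted p = 0.0412) and in the free RNA (-1.44, 0.0127). More of all genes were called in that setting too. The median log2 fold change over all genes in the free RNA was 0.04 with TMM scaling and -0.22 with total UMIs alone, and it was -0.01 and -0.11 in pericytes and 0.02 and 0.04 in ECs.

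Among the metabolic targets, Pdk1 in ECs was 26.7 and 22.9 CPM in the WT mice and 21.2 and 20.1 CPM in the Tg mice (-0.29, SE 0.24, adjusted p = 0.457), and Slc2a1 10.4 and 11.3 against 7.67 and 8.29 CPM (-0.47, SE 0.32, 0.379). In macrophages the order of Pdk1 was the opposite, 14.8 and 19.3 CPM in the WT mice and 27.2 and 29.0 CPM in the Tg mice (0.66, SE 0.28, 0.194), and that of Slc2a1 was 24.0 and 13.2 against 10.6 and 10.0 CPM (-0.84, SE 0.39, 0.233). The genotypes did not overlap in these values, and none passed the test. The vasodilator peptide gene Adm was too rare in ECs to test, at 1.67 and 0.70 CPM in the WT mice and 1.82 and 1.5 CPM in the Tg mice. Ankrd37 in ECs was 4.17 and 2.82 against 4.04 and 1.22 CPM (-0.48, SE 0.69), and 4.32 and 1.54 against 8.33 and 3.59 CPM in the free RNA (1.48, SE 0.66, adjusted p = 0.136), from 24 and 11 against 105 and 7 UMIs. With no filter on low counts, the latter change passed the test (1.47, adjusted p = 0.0159).

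Among the members tested, both Tg values lay below both WT values for 4 of 9 in ECs and above them for none, with 5 below and 1 above of 10 in the free RNA. Over all genes tested, 26.6% lay below and 34.1% above in ECs, and 41.6% and 27.4% in the free RNA. In AT1 nuclei, 2 of 9 members lay below and 3 above, beside 24.7% and 34.5% of all genes, and in AT2 nuclei 2 and 1 of 8, beside 27.8% and 34.6%. Fibroblasts had 2 below and 1 above of 6 (27.0% and 27.3% of all genes), macrophages 2 and 2 of 6 (26.1% and 32.6%) and pericytes 1 and 0 of 4 (29.9% and 20.4%). In the test of whether the genotype change in ECs differed from that in the free RNA, with a term for each mouse, 15.6% of 15741 genes were called, and of these 10 genes Egln1 and Ankrd37.

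**Figure D4:**
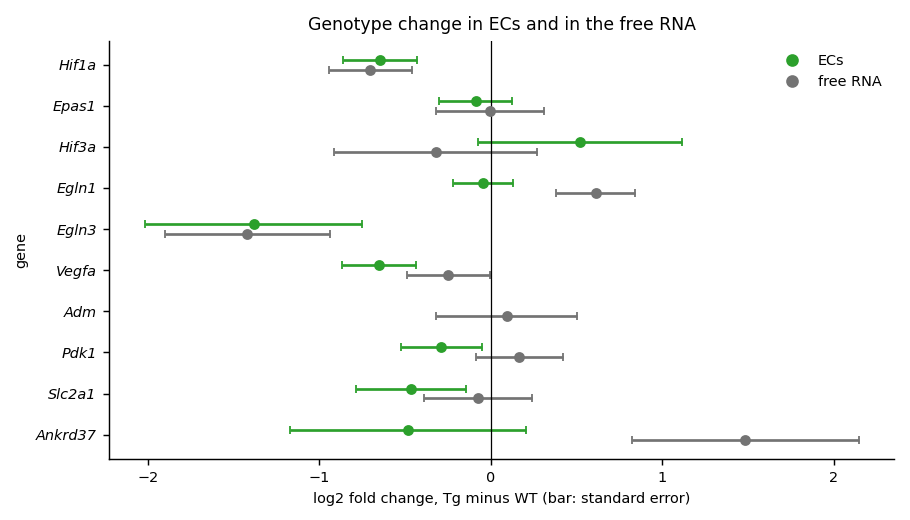
Log2 fold change of Tg over WT for each gene in ECs (green) and in the free RNA (grey), with bars for the standard error (Adm was not tested in ECs). Hif1a and Egln3 have like values in both (-0.65 and -0.70, and -1.38 and -1.42), while those of Egln1 (-0.05 and 0.61) and Ankrd37 (-0.48 and 1.48) lie apart.

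The other genes of the pathway were taken from 5 lists, which were chosen with earlier results of these data known. In ECs, the sugar-breakdown list had the largest shift, with 4 of its 19 genes higher in the Tg mice, none lower and a median log2 fold change of 0.78, beside 0.02 over all genes and a share of 7.22% of genes higher in Tg. The glycolytic enzyme Gapdh rose from 5.84 and 14.1 CPM in the WT mice to 106 and 76.6 CPM in the Tg mice (3.15 on the log2 scale, adjusted p = 0.0068), and Aldoa, the aldolase, from 47.5 and 60.5 to 145 and 135 CPM (1.35, adjusted p = 0.0095). Gapdh has many near-identical pseudogenes, so that its counts depend on how shared reads were treated. Hexokinase Hk2 rose from 21.7 and 20.4 to 48.6 and 42.7 CPM (1.09, 0.0265), and Tpi1 from 14.2 and 18.0 to 32.1 and 32.2 CPM (0.97, 0.0444). The same 2 leading enzymes rose in the free RNA, Gapdh from 15.3 and 24.6 to 251 and 157 CPM (3.64, 0.0178) and Aldoa from 106 and 128 to 380 and 344 CPM, and both stood higher in the free RNA than in ECs in each mouse. The number of the 19 called in ECs was 0 without Tg replicate 1, 0 without Tg replicate 2, 9 without WT replicate 2, 8 with no filter on low counts, 8 with the replicate block and 0 when the free RNA was subtracted. Signs of other cells and of RNA quality also moved with the genotype in the EC sums: Scgb1a1 was 0.647% and 0.641% of their UMIs (WT) against 3.85% and 1.37% (Tg), hemoglobin 0.0171% and 0.0124% against 0.310% and 0.183%, and mitochondrial transcripts 0.0574% and 0.0828% against 0.384% and 0.347%. Apart from the subtraction of the free RNA, their part in the list changes was not tested.

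In the other sets, glucose uptake and glycolysis genes higher in Tg were 3 of 19 in AT1 nuclei (background 6.27%), 5 of 19 in AT2 nuclei (10.7%), 3 of 17 in fibroblasts (5.24%), 2 of 19 in macrophages (4.52%), 2 of 10 in pericytes (3.91%) and 8 of 19 in the free RNA (14.5%), with none lower in any. Without Tg replicate 1 the count was 0 in AT1, fibroblast and macrophage nuclei, 2 in AT2 nuclei and 1 in pericytes. Without Tg replicate 2 it was 0 in macrophages, 2 in AT2 nuclei and 1 in pericytes, without WT replicate 1 it was 3 in AT2 nuclei and 0 in pericytes, and without WT replicate 2 it was 6 in fibroblasts and 0 in pericytes. DESeq2 gave 2 in AT2 nuclei and 0 in pericytes, no filter on low counts 8 in AT1 nuclei and 5 in fibroblasts, the replicate block 8 in AT1 nuclei, the free RNA subtracted 1 in macrophages and 0 in pericytes, and nuclei with at least 3000 UMIs 0 in pericytes. The 8 in the free RNA became 0 without Tg replicate 1, 2 without Tg replicate 2 and 5 without WT replicate 1, and with free RNA from barcodes of 100 to 300 UMIs this list and the other 4 had 0 higher. Oxygen sensing genes and HIF partners had 1 of 13 higher in ECs, close to the 7.22% of all genes, and 3 higher and 1 lower of 13 in the free RNA, beside 14.5% and 11.0%. The 3 became 0 without Tg replicate 1, and 1 without Tg replicate 2, without WT replicate 1 or without TMM scaling. The one in ECs was Elob, a subunit of the von Hippel-Lindau ligase, with 16.7 and 21.5 CPM in the WT mice and 125 and 67.3 CPM in the Tg mice (2.31, adjusted p = 0.0101), beside 32.8 and 42.8 against 317 and 175 CPM in the free RNA, and it was not called in ECs without either Tg mouse or with the free RNA subtracted (0 of 13 in each). Among the mitochondrial and stress genes, 0 of 10 were called in ECs and 5 of 11 were higher in the free RNA, beside 7.22% and 14.5% of all genes, with medians of 0.31 and 0.75. The 5 became 0 without Tg replicate 1 and 2 without Tg replicate 2, and the 0 in ECs became 2 without either WT mouse, 2 with no filter on low counts or with the replicate block, and 1 without TMM scaling or with classes by likelihood.

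In the list of matrix, vessel tone and iron genes, 2 of 14 were higher in ECs (7.22% of all genes) and 4 of 15 in the free RNA (14.5%). Those in ECs were Angptl4, a secreted inhibitor of lipoprotein lipase, at 2.08 and 2.82 CPM in the WT mice against 10.3 and 12.1 CPM in the Tg mice (2.15, adjusted p = 0.0223), and Ramp2, a part of the receptor for the Adm peptide, at 27.1 and 37.7 against 139 and 66.8 CPM (1.65, 0.0360). In the free RNA they were 1.44 and 6.72 against 16.2 and 15.4 CPM, and 16.4 and 24.5 against 95.6 and 44.1 CPM. The number of this list called higher in ECs was 0 without Tg replicate 1, 0 without Tg replicate 2, 1 from nuclei with at least 3000 UMIs and 0 with the free RNA subtracted, and the 4 in the free RNA became 0, 1 and 2 without Tg replicate 1, Tg replicate 2 and WT replicate 1. Demethylases and feedback transcription factors had 1 of 10 lower in ECs, Wsb1, which fell from 97.6 and 92.2 to 54.3 and 62.3 CPM (-0.73, adjusted p = 0.0449), beside 0.925% of all genes lower in ECs. The call was lost (0 of 10) without WT replicate 1, Tg replicate 1 or Tg replicate 2, with DESeq2, without TMM scaling, from nuclei with at least 3000 UMIs, with the free RNA subtracted and with classes by likelihood. None of the list was higher in ECs, where 1 was with no filter on low counts, 1 with the replicate block and 2 without WT replicate 2.

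**Figure D5:**
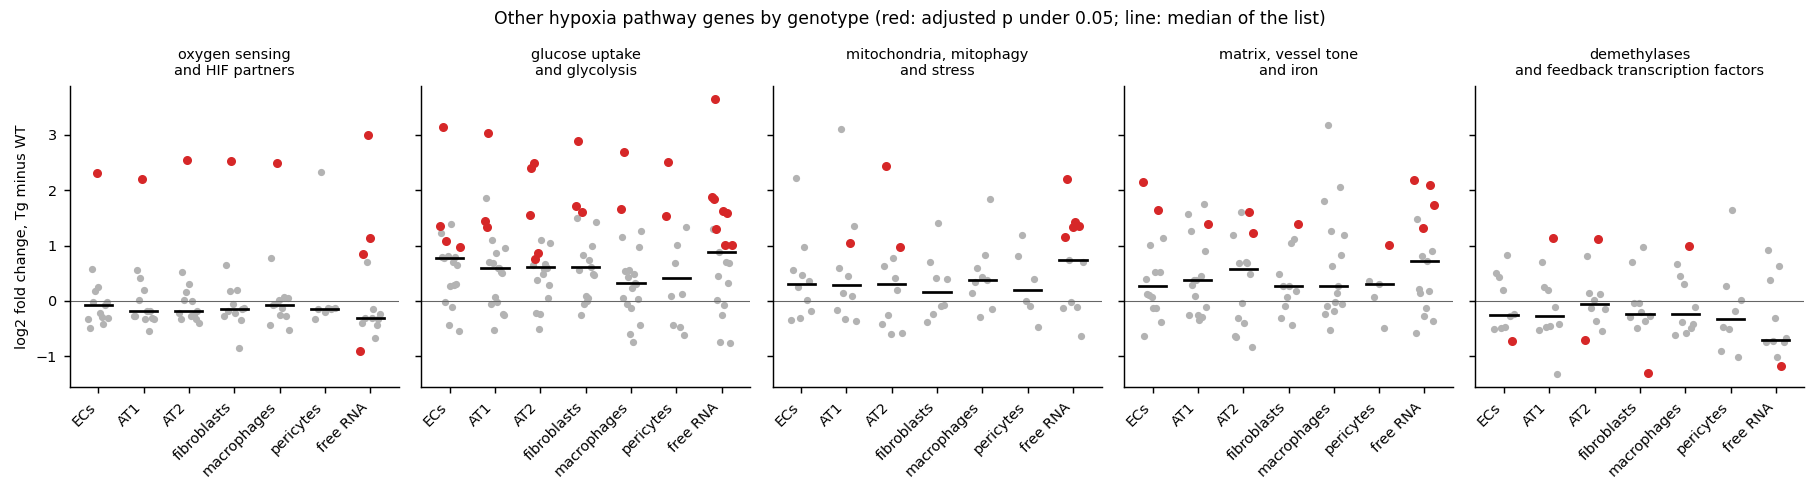
Log2 fold change of Tg over WT for each gene of the 5 pathway lists (panels) in the 6 classes and in the free RNA (red, adjusted p under 0.05; line, median of the list). The glycolysis medians lie above 0 in each set, 0.78 in ECs and 0.89 in the free RNA, and those of the demethylase list lie below it, -0.25 in ECs and -0.70 in the free RNA.

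Genes of the same lists were also compared among the cell classes. In ECs, 5 of 14 matrix, vessel tone and iron genes were above the mean of the other classes, against the share of 13% over all genes, with 1 below it. Those higher were led by the Adm receptor genes Calcrl (2022 ± 587 CPM, log2 difference 3.31) and Ramp2 (1.94) and the vasoconstrictor Edn1 (2.54). Pericytes stood out in Cox4i2, a hypoxic subunit of cytochrome oxidase, at 59.9 ± 42.3 CPM (4.03), 1 of 2 higher genes of 11 in the mitochondrial list (6.06% of all genes). Of the 14 matrix, vessel tone and iron genes, AT1 nuclei had 3 higher and 6 lower (19.8% and 23.5% of all genes). Of the 19 glucose uptake and glycolysis genes, AT2 nuclei had 3 higher and 4 lower (17.5% and 18.2%) and mesothelial nuclei 5 and 4 (19.0% and 17.6%). T and NK nuclei had 5 higher and 0 lower of these 19 (10.9% and 12.1%), macrophages 7 and 3 (25.1% and 28.8%) and ciliated nuclei 3 and 8 (28.5% and 30.1%). The counts of higher genes in AT1 and AT2 nuclei lay near those shares. AT1 nuclei were higher in the collagen-modifying enzymes Plod2 (172 ± 18.7 CPM, 3.07) and P4ha2 (1.74), AT2 nuclei in Pfkfb4 (216 ± 24.8 CPM, 1.56) and Hk2 (1.33), and mesothelial nuclei in the carriers Slc16a1 (183 ± 29.0 CPM, 2.50) and Slc2a3 (2.27). Arnt2, a partner of the HIF subunits, was higher in T and NK nuclei (2.85) and mesothelial nuclei (2.24). Of the 13 oxygen sensing genes and HIF partners, T and NK nuclei had 2 higher and 1 lower (10.9% and 12.1% of all genes). Mesothelial nuclei had 3 higher and 1 lower (19.0% and 17.6%). Values in parentheses other than CPM and shares are log2 differences from the mean of the other classes, all past the threshold of edgeR's test. CPM are given with the SD over n = 4 mice.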

How the data were processed

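Nuclei of lungs of 2 WT and 2 VEcad-TRF2DN-Tg mice were sequenced in droplets with barcoded beads. What the authors deposited was 1 matrix per mouse with the UMI counts of every gene in every barcode, nuclei and empty droplets alike. The submitters' processing notes name Cell Ranger 6.1.1 and mm10, and their nucleus selection, removal of free RNA and clusters were not used here. Every column of values belonged to a sample (0 without one). Barcodes with at least 1500 UMIs were placed in a class by a log-likelihood ratio on marker UMIs, with at least 3 markers detected, where markers above a set level in the free RNA were dropped. A total of 2007 barcodes with the markers of several classes (possible doublets) and 108248 without a class were left out, and 5618 placed nuclei lay near the limit of the ratio. Their share was uneven, and is given above for AT2 nuclei. In macrophages they were 106 of 315 and 145 of 371 nuclei in the WT mice and 449 of 794 and 408 of 731 in the Tg mice. UMIs were summed per class and mouse. CPM are UMIs scaled to a total of 1e6 in that sum, whereas fold changes come from TMM-scaled sums. Tg was set against WT in the quasi-likelihood test of edgeR with Benjamini-Hochberg adjustment over all genes passing its filter (minimum 10 UMIs) at a threshold of 0.05, as 2 against 2 mice. Classes were compared with each other and with the free RNA (barcodes of 300 to 800 UMIs) with a term for each mouse. On simulated counts of ECs with 200 changed genes, the genotype test recovered 21% of 2-fold and 88% of 4-fold changes, with 12.5% and 8.33% false calls, and in the free RNA 2.5% and 66%, with 28.6% and 6.38%.

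All 10 members are named. Of the pathway lists, at most 4 genes per list and comparison are named, those with the smallest p. Likeness was Pearson's r over 12 classes, with 1 gene not reported here. The members, the lists and the tests were chosen with earlier results of these data known. Same-numbered WT and Tg samples share only a number, the correlation of their deviations being -0.21 to 0.15. Alternatives were DESeq2, no TMM, no filter, the replicate block, each mouse left out, at least 3000 UMIs, free RNA subtracted, classes by likelihood, the top 5% of UMIs left out, at most 1% mitochondrial UMIs and free RNA from 100 to 300 UMIs. A crossed replicate block in macrophages was chosen after seeing the data. Whether a sum with 0 UMIs reflects counting error or absence of the transcript was not tested. Replicate pairs of 1 class differed by more than counting error (chi-square per degree of freedom 2.69 to 36.2). Each SE is the absolute log2 difference over the square root of F, so that it carries the fitted spread between sums. Tools were edgeR 4.0.16, DESeq2 1.42.0 and limma 3.58.1 in R 4.3.3, and pandas 2.3.3, SciPy 1.17.1, NumPy 2.4.6 and Matplotlib 3.10.9 in Python 3.11.15. Sequences are RefSeq's on GRCm38.p6.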

Additional observations from a re-analysis of the deposited data

Results flagged for a closer look

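For 2 of the genes, the change between the genotypes in ECs differed from the change in the free RNA by a test of the difference itself (edgeR, a term for each mouse, n = 2 mice per genotype, adjusted over 15741 genes). These are 2 of the 10 genes, beside 15.6% of all genes called in the same test. For Egln1 the difference was -0.60 on the log2 scale (SE 0.21, adjusted p = 0.0258), with a log2 fold change of -0.05 in ECs and 0.61 in the free RNA. It was not past the threshold without TMM scaling (-0.39, adjusted p = 0.284), without WT replicate 1 (-0.50, 0.316), without Tg replicate 1 (-0.56, 0.256), with no filter on low counts (-0.67, 0.0504), from nuclei with at least 3000 UMIs (-0.58, 0.0648) or without the nuclei with the most UMIs (-0.55, 0.0530).

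For Ankrd37 the difference was -1.76 (SE 0.65, adjusted p = 0.0454), with -0.48 in ECs and 1.48 in the free RNA. It was past the threshold in no fit that left out a mouse (-2.36 without WT replicate 1, -1.39 without WT replicate 2, -2.0 without Tg replicate 1 and -1.76 without Tg replicate 2, with adjusted p of 0.0819 to 0.358), nor without TMM scaling (-1.49, 0.107) or from nuclei with at least 3000 UMIs (-1.95, 0.100). On simulated counts, this test recovered 0% of 200 genes with a 2-fold difference and 49.5% of those with a 4-fold difference, and 100% of its calls at 2-fold and 5.71% of those at 4-fold were false. The difference of Egln1 is under 2-fold. No outlier among samples could be looked for, since a genotype has 2 mice.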

How the results depend on the processing

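The number of genes called between the genotypes was 1162 in ECs, 1009 in AT1, 1845 in AT2, 615 in fibroblasts, 623 in macrophages, 261 in pericytes and 3883 in the free RNA, and 2460 differed between ECs and the free RNA. With no filter on low counts these were 2733, 3223, 2804, 1432, 2146, 496 and 5742 (the last within 1.5 times), and 1559. With DESeq2 they were 1151 in AT2, 400 in fibroblasts and 127 in pericytes. With the free RNA subtracted they were 168 in ECs, 461 in AT1, 108 in fibroblasts, 168 in macrophages and 3 in pericytes. Fibroblasts gave 399 from nuclei with at least 3000 UMIs, and classes by likelihood gave 1080 in fibroblasts and 1194 in macrophages. The macrophage class by likelihood was much larger than that by markers, with 1043 and 2217 nuclei (WT) and 4596 and 7062 nuclei (Tg). Free RNA from barcodes of 100 to 300 UMIs gave 79 calls and 0 differences from ECs, and Egln1 then had a difference of 8.73 that did not pass the test, from very few UMIs. Leaving out 1 mouse gave 0 to 2705 calls in ECs (0 without Tg replicate 2, 2 without Tg replicate 1), 5 to 1152 in AT1, 680 to 2429 in AT2, 40 to 1369 in fibroblasts, 0 to 2787 in macrophages, 0 to 335 in pericytes, 0 to 4797 in the free RNA and 609 to 1782 for the difference. The sign turned, for values that passed no test, for Egln1 in ECs (0.0076, 0.050 and 0.011 with 3000 UMIs, likelihood and the top 5% left out), Vegfa in macrophages (1.09 subtracted) and pericytes (0.061 with 3000 UMIs, 0.054 subtracted), and, without TMM scaling, Adm (-0.20) and Pdk1 (-0.077) in the free RNA. With 1 mouse left out, the ranges were -0.22 to 0.055 for Epas1, -0.088 to 1.80 for Hif3a and -1.53 to 0.23 for Ankrd37 in ECs, -0.65 to 0.0053 for Vegfa in macrophages and -0.78 to 0.16 in pericytes, and -0.24 to 0.25 for Epas1, -1.88 to 0.082 for Hif3a, -0.22 to 0.23 for Adm and -0.37 to 0.16 for Slc2a1 in the free RNA. With 1 mouse alone in a genotype, it was assumed to vary like the others.

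With the replicate number as a block, which same-numbered samples did not bear out (r from -0.21 in macrophages to 0.15 in ECs), 2330 genes were called in ECs, 2154 in AT1 and 347 in macrophages, and a crossed pairing in macrophages, chosen after seeing the data, gave 1851. The block took Hif1a past the threshold in ECs (-0.67, adjusted p = 0.0419), AT1 (-0.71, 0.0491) and AT2 nuclei (-0.73, 0.0393), Vegfa in ECs (-0.63, 0.0487), and Egln3 (-1.51, 0.0234) and Ankrd37 (1.32, 0.0465) in the free RNA. The log2 fold change of Epas1 in the free RNA, near 0 and past no test, then turned to 0.0044. Depth limits Adm and Ankrd37, both at 0 UMIs in 12 of the 48 sums of a class in a mouse, and the 2 mice per genotype limit every genotype test.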
